A study of Mus musculus with 18 samples.

Results

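The genes described here are 10 genes of airway mucus and its producing cells: the gel-forming mucins Muc5b and Muc5ac, the membrane mucins Muc1, Muc4, Muc16 and Muc20, the trefoil peptide Tff2, the mucin-folding factor Agr2, the goblet cell transcription factor Spdef and the surface glycoprotein Gp2. They were taken by name from 30142 genes measured on every array, each through the probe set that names no other gene. All 10 had exactly 1 such probe set. The cells came from mice of the TCF/Lef:H2B/GFP strain, 8 to 12 weeks old, in which a histone-fused green fluorescent protein reports TCF/Lef-driven Wnt/beta-catenin transcription. Living EpCAM-positive cells, depleted of CD31-positive and CD45-positive cells, were sorted by fluorescence into groups of high (Wnthigh), low (Wntlow) and no reporter signal (Wntnegative), each from pools of 3 to 4 animals. All groups carried the same reporter and none was treated. The labels name the tissue distal lung, while the protocol states that trachea and bronchi were taken along. Each group has 6 arrays: Wnthigh arrays come from experiments 2, 4, 5, 7, 8 and 9, and Wntlow and Wntnegative arrays from experiments 3, 4, 5, 7, 8 and 9. The question is how the mucus genes differ between epithelial cells of high, low and absent reporter activity.

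Gel-forming mucins are secreted and link through cysteine-rich ends into the polymers that make up mucus. Membrane mucins stay anchored in the apical membrane and form the layer beneath the mucus and over cilia. In the mouse airway Muc5b is the main gel-forming mucin at rest, Muc5ac is known for its induction in allergic inflammation, and goblet cells arise mostly from club cells under the transcription factor Spdef. Muc1 is also known as a surface mucin of alveolar type II cells.

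Values are log2 values made with the RMA procedure, and every difference is a log2 difference on that scale, the first-named group minus the second. Array medians set apart 2 runs of 9 arrays each, with 4.62 to 4.77 for experiments 2 to 5 and 3.55 to 3.69 for experiments 7 to 9. Background, taken as the 95th percentile of 23 background control probe sets on each array, ranged over 4.82 to 5.17 in the earlier run and 4.57 to 4.92 in the later one. The Wnthigh array of experiment 4 stood apart: it was the highest Wnthigh array for every one of the 10 genes, so results that rest on Wnthigh arrays were also computed without it. The epithelial markers Epcam, Cdh1, Krt8, Krt18 and Cldn7 were above background on all 18 arrays, while none of 3 endothelial and 3 measured leukocyte markers was above background on 3 arrays.

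Of the 10 genes, 9 had their highest mean in Wntlow arrays, and Muc1 had its highest mean in Wntnegative arrays. By the test, 9 were higher in Wntlow than in Wntnegative arrays and none was lower, where 25.5% of all genes passed the test in this comparison (12.3% higher, 13.2% lower). In Wnthigh against Wntlow arrays, 9 were lower and none was higher, where 27.9% of all genes passed (11.4% higher, 16.4% lower). In Wnthigh against Wntnegative arrays, Muc5b, Tff2, Agr2 and Muc4 were higher and Muc1 and Spdef were lower, 6 of 10 genes, where 40.3% of all genes passed (15.7% higher, 24.6% lower). These shares include dim genes, while all 10 genes were above background on at least 3 arrays. A fit of the 16048 such genes called 10883 in Wnthigh against Wntnegative arrays, a share that 6 of 10 does not exceed. It called 7419 of the 16048 in Wntlow against Wntnegative arrays, a larger share than the 25.5% of all genes. For Wnthigh against Wntlow arrays such a count is not given here, and the 27.9% includes dim genes too. In these sorted bulk samples, fewer cells of a kind and less RNA per cell cannot be told apart. The test was limma with the run as a term, two-sided, with an adjusted p under 0.05 over all genes. Adding the experiment number as a block ended the Agr2 call in Wnthigh against Wntnegative arrays (1.10, adjusted p = 0.101), and leaving out the Wnthigh array of experiment 4 ended that call of the 10 genes and no other.

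**Figure D1:**
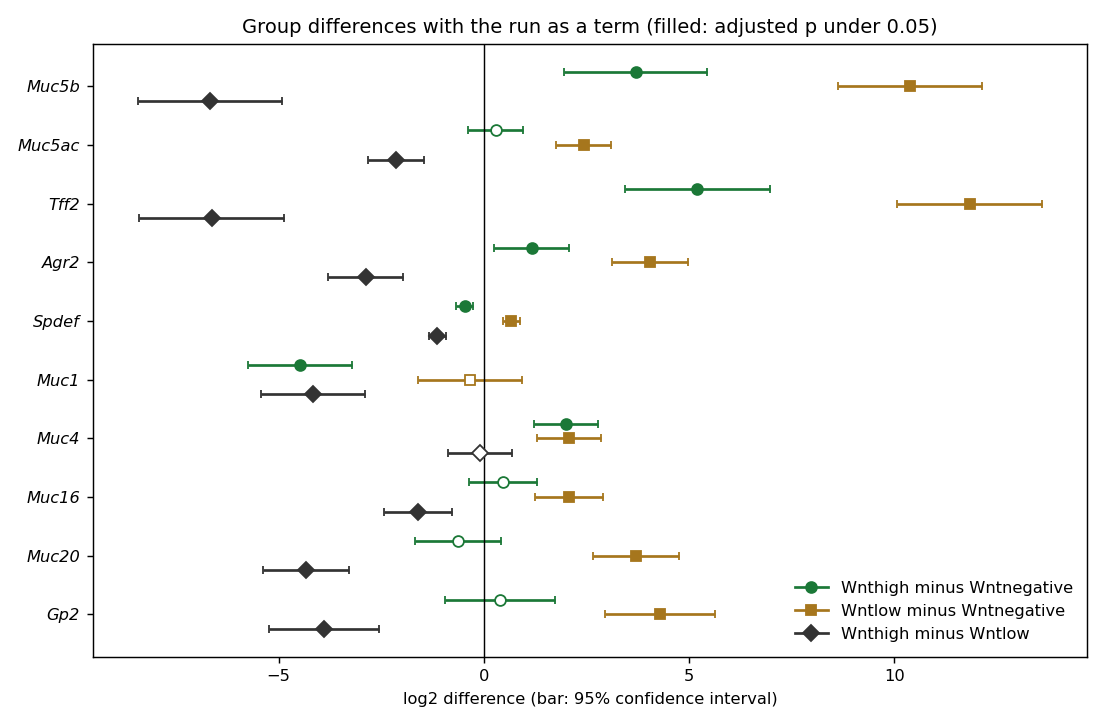
Log2 differences of the 10 genes in the 3 comparisons (symbols) with 95% confidence intervals (bars) from the fit with the run as a term. Muc5b and Tff2 lie farthest to the right for Wntlow minus Wntnegative, at 10.38 and 11.84, and Muc1 is the farthest to the left for Wnthigh minus Wntnegative, at -4.48.

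Promoter windows of 300 bases, from 250 bases before to 50 bases after the start site, were held for 7 of the 10 genes in a RefSeq table of build GRCm38.p6 (Muc1, Muc4, Muc16, Muc20, Agr2, Spdef and Gp2). Both strands were searched for the TCF/Lef motif CTTTGAT or CTTTGAA, the forkhead motif TGTTTAC or TGTTTGC, the Spdef-type ETS motif CCGGAT and the TATA box TATAAA. Of all 32851 promoters of this length, 8.65% held the TCF/Lef letters, 8.48% the forkhead letters, 6.04% CCGGAT and 13.6% TATAAA. None of the 7 windows held the TCF/Lef or the ETS letters. The TATA box letters began at position -31 from the start site in Muc1, -36 in Muc4 and -32 in Gp2, and Muc20 held TGTTTAC on the reverse strand from position -248. The 4 windows with a match are printed 5′ to 3′ on the gene's strand, with the match in capitals, since these genes differ in their pattern over the groups: Muc1 was lowest in Wnthigh cells, Muc4 was lowest in Wntnegative cells, and Muc20 and Gp2 were highest in Wntlow cells, with Gp2 mostly at background elsewhere.
Muc1, chr3:89228806-89229105, plus strand: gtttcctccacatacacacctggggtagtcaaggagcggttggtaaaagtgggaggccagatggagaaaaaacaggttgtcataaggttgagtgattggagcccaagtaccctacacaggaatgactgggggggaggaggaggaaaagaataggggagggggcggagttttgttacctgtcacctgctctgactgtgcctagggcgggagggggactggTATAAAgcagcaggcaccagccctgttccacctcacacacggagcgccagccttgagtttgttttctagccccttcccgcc
Muc4, chr16:32735636-32735935, plus strand: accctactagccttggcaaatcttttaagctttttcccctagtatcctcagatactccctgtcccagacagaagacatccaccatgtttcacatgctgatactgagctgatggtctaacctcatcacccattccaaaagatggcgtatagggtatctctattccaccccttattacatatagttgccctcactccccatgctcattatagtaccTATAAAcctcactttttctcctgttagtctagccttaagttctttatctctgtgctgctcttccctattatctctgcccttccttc
Muc20, chr16:32797386-32797685, minus strand: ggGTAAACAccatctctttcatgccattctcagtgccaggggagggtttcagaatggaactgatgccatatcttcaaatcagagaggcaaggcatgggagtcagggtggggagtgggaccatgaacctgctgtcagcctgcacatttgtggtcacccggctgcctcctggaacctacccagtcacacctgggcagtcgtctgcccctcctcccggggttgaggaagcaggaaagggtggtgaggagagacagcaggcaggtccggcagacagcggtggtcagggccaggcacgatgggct
Gp2, chr7:119459223-119459522, minus strand: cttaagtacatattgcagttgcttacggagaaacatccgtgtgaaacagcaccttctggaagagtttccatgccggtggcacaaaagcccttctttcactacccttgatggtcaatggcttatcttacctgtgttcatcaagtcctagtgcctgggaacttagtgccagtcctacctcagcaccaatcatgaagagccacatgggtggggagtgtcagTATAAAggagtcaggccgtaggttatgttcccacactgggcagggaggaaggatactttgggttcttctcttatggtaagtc
The matches describe letters and not binding sites.

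The gel-forming mucins were highest in Wntlow cells. Muc5b had a lowest, median and highest value of 6.83, 8.26 and 12.79 in Wnthigh arrays, 13.69, 15.46 and 17.30 in Wntlow arrays, and 4.43, 5.17 and 5.74 in Wntnegative arrays. The 3 groups did not overlap, and the Wntnegative arrays lay near background, with 4 of 6 above it. Muc5b averaged 15.49 ± 1.38 in Wntlow and 5.11 ± 0.53 in Wntnegative arrays (SD, n = 6 each), a difference of 10.38 (SE 0.82, adjusted p = 5.15e-07), or at least 10.3 against background, and as deposited the rank 6 from the highest of 30142 genes. Wnthigh arrays averaged 8.81 ± 2.04 (SD, n = 6), which was 3.70 above Wntnegative (SE 0.82, adjusted p = 0.00159) and 6.68 below Wntlow. That last difference (-6.68, SE 0.82, adjusted p = 1.51e-05) and that of Tff2 (-6.63) were the lowest of all genes, in an order that turned under other settings, as without the Wnthigh array of experiment 4 (-7.54 for Muc5b, -7.55 for Tff2). Without that array the Muc5b difference was 2.84 in Wnthigh against Wntnegative arrays, and both calls were kept. Wntlow values of Muc5b, Tff2 and Muc1 above 16 exceed what a 16-bit scanner can record as log2, as do Muc1 values in Wntnegative arrays, and whether these probe sets were compressed at their upper end was not tested.

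Muc5ac was also highest in Wntlow cells, at values nearer background. The lowest, median and highest Muc5ac values were 3.79, 4.24 and 5.67 in Wnthigh arrays, 5.72, 6.53 and 7.61 in Wntlow arrays, and 3.52, 4.16 and 4.74 in Wntnegative arrays. It was above background on 1 Wnthigh array, on all 6 Wntlow arrays and on none of the Wntnegative arrays. The Wntlow arrays lay above every array of the other groups, while the Wnthigh and Wntnegative arrays overlapped. Muc5ac in Wntlow arrays exceeded Wntnegative arrays by 2.43 (SE 0.32, adjusted p = 4.94e-05), or by at least 1.57 when values under background are raised to it. In Wnthigh against Wntlow arrays the difference was -2.14 (SE 0.32, adjusted p = 7.21e-05), and -1.43 with values raised to background. Between Wnthigh and Wntnegative arrays it was 0.29 (95% confidence interval -0.39 to 0.97, adjusted p = 0.516), which did not pass.

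**Figure D2:**
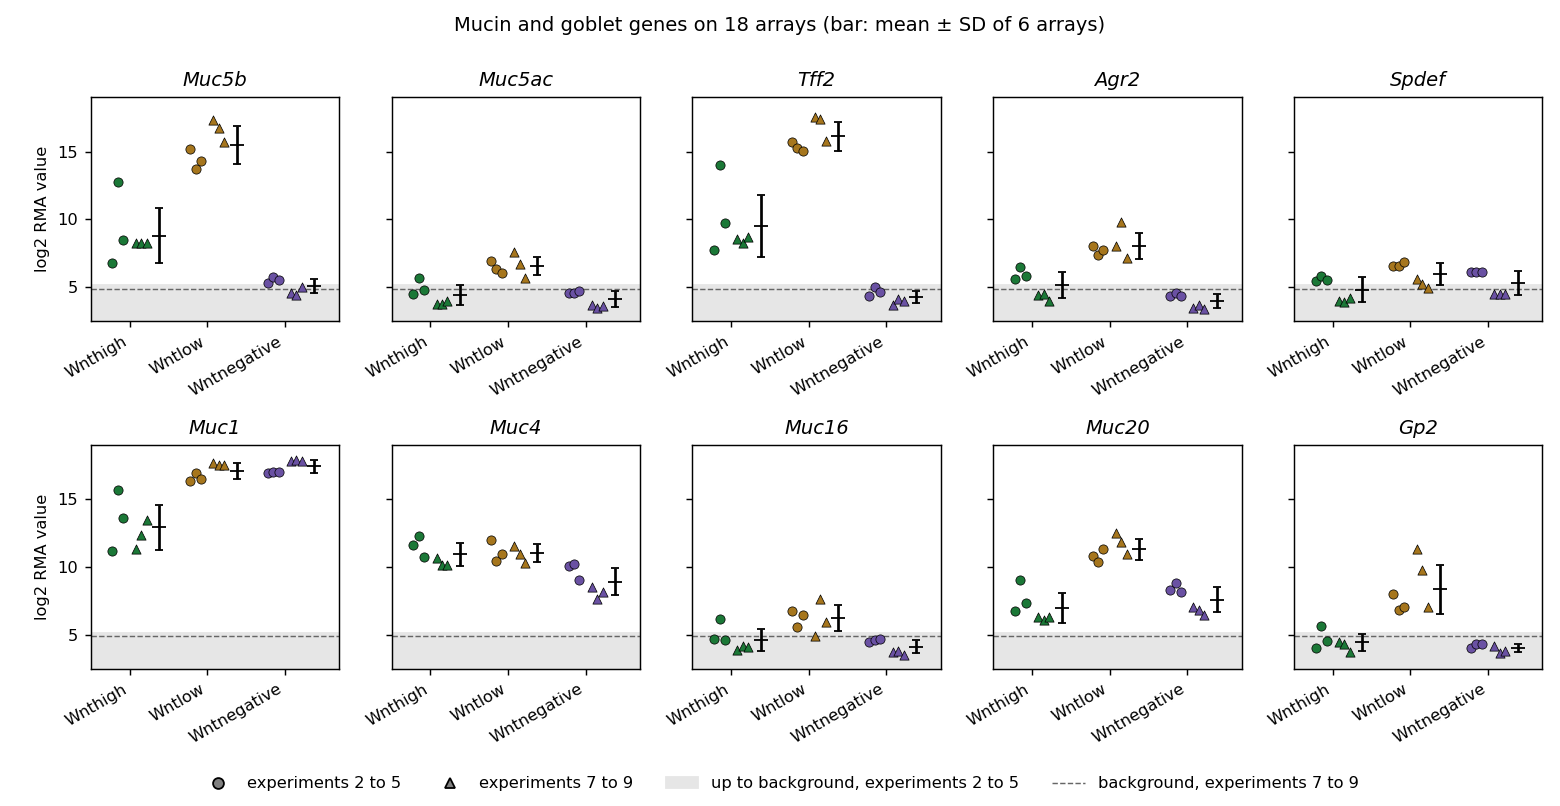
Log2 values of the 10 genes on each of 18 arrays, by group, with circles for experiments 2 to 5, triangles for experiments 7 to 9, and mean ± SD of 6 arrays as bars. The grey band ends at the background of experiments 2 to 5, and the dashed line marks that of experiments 7 to 9. Wntlow arrays of Muc5b and Tff2 sit between 13.69 and 17.54, above all other arrays, and the Wnthigh array of experiment 4 reaches 12.79 and 13.98.

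Tff2, whose trefoil peptide is secreted along with mucins, was highest in Wntlow cells and at background in Wntnegative cells. For Tff2 the lowest, median and highest values were 7.76, 8.65 and 13.98 in Wnthigh arrays, 15.05, 15.77 and 17.54 in Wntlow arrays, and 3.70, 4.25 and 5.00 in Wntnegative arrays. The groups did not overlap, and no Wntnegative array was above background. The Wntlow minus Wntnegative difference was 11.84 (SE 0.83, adjusted p = 1.81e-07), or at least 11.15 against background. As deposited this was the largest difference of all 30142 genes, but that rank rests on Wntnegative values under background: Bpifb1 had 11.57, or at least 11.53. The Wnthigh minus Wntnegative difference was 5.20 (SE 0.83, adjusted p = 7.79e-05), or at least 4.52, and 4.29 without the Wnthigh array of experiment 4. In Wnthigh against Wntlow arrays Tff2 was lower by 6.63 (SE 0.83, adjusted p = 1.75e-05).

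Agr2, a protein disulphide isomerase of the endoplasmic reticulum that mucin folding depends on in mouse intestine, was also highest in Wntlow cells. Agr2 spanned a lowest, median and highest value of 4.01, 5.07 and 6.48 in Wnthigh arrays, 7.17, 7.90 and 9.85 in Wntlow arrays, and 3.42, 4.03 and 4.59 in Wntnegative arrays. All Wntlow arrays lay above all others, and Wnthigh arrays overlapped Wntnegative arrays. Agr2 was above background on 3 Wnthigh, 6 Wntlow and 0 Wntnegative arrays. Wntlow arrays exceeded Wntnegative arrays by 4.05 (SE 0.43, adjusted p = 7.96e-06), or by at least 3.05, and Wnthigh arrays were lower than Wntlow arrays by 2.88 (SE 0.43, adjusted p = 7.51e-05). The Wnthigh minus Wntnegative difference was 1.17 (SE 0.43, adjusted p = 0.0412). With values raised to background it was 0.47, which is no lower limit, since Agr2 was above background on only 3 Wnthigh arrays. This difference was no longer called without the Wnthigh array of experiment 4 (0.95, adjusted p = 0.103). Leaving out 1 experiment at a time kept the call in 1 of 7 fits, that without experiment 8.

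Spdef, the ETS-family factor of goblet cell differentiation, differed by less. Its lowest, median and highest values were 3.93, 4.85 and 5.87 in Wnthigh arrays, 4.99, 6.09 and 6.88 in Wntlow arrays, and 4.50, 5.30 and 6.11 in Wntnegative arrays. These ranges overlap because the runs differ; within each run the order was Wntlow, Wntnegative, Wnthigh with no overlap. In experiments 7 to 9 Spdef was above background on the Wntlow arrays alone. The differences were -0.46 in Wnthigh against Wntnegative arrays (SE 0.10, adjusted p = 0.00106), 0.67 in Wntlow against Wntnegative arrays (SE 0.10, adjusted p = 0.000128) and -1.13 in Wnthigh against Wntlow arrays (SE 0.10, adjusted p = 2.05e-06). With values raised to background they were -0.18, 0.51 and -0.69, and within experiments 7 to 9 the Wnthigh against Wntnegative difference compares values under background alone. The deposited Spdef value was identical on the 3 Wntnegative arrays of each run, 6.11 and 4.50, as was the case for 4.91% and 5.25% of all genes, and the small errors rest partly on these equal values.

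Among the membrane mucins, Muc1 was lowest in Wnthigh cells. The lowest, median and highest Muc1 values were 11.15, 12.88 and 15.63 in Wnthigh arrays, 16.30, 17.21 and 17.67 in Wntlow arrays, and 16.91, 17.39 and 17.86 in Wntnegative arrays. Every Wnthigh array lay below every array of the other groups, and the Wntlow and Wntnegative arrays overlapped. Wnthigh arrays were lower than Wntnegative arrays by 4.48 (SE 0.60, adjusted p = 1.14e-05) and lower than Wntlow arrays by 4.16 (SE 0.60, adjusted p = 5.11e-05). Without the Wnthigh array of experiment 4 these differences were -5.09 and -4.77. Between Wntlow and Wntnegative arrays the Muc1 difference was -0.33 (95% confidence interval -1.59 to 0.94, adjusted p = 0.741), although Wntlow was the lower array in 6 of 6 experiments, by 0.09 to 0.62. A fit of those 2 groups alone called it (-0.33, adjusted p = 0.0252).

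Muc4, a large membrane mucin known from ciliated and secretory cells of airways, was the only one of the 10 genes in which Wnthigh and Wntlow arrays did not differ by the test. For Muc4 the lowest, median and highest values were 10.13, 10.70 and 12.28 in Wnthigh arrays, 10.28, 10.93 and 11.99 in Wntlow arrays, and 7.63, 8.75 and 10.21 in Wntnegative arrays. The Wnthigh and Wntlow arrays overlapped over most of their range, and both lay above the Wntnegative arrays within each run. The difference from Wntnegative arrays was 1.99 in Wnthigh arrays (SE 0.37, adjusted p = 0.000306) and 2.08 in Wntlow arrays (SE 0.37, adjusted p = 0.000513). Between Wnthigh and Wntlow arrays it was -0.09 (95% confidence interval -0.87 to 0.69, adjusted p = 0.914), and its sign turned under 5 of the other settings.

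Muc16, a membrane mucin of mucosal surfaces, was dim. Muc16 spanned a lowest, median and highest value of 3.87, 4.42 and 6.21 in Wnthigh arrays, 4.93, 6.21 and 7.66 in Wntlow arrays, and 3.55, 4.15 and 4.67 in Wntnegative arrays. It was above background on 1 Wnthigh, 6 Wntlow and 0 Wntnegative arrays, and the Wnthigh array above background was that of experiment 4. Wntlow arrays lay above Wntnegative arrays without overlap, by 2.08 (SE 0.39, adjusted p = 0.000842) or by at least 1.24 against background. In Wnthigh against Wntlow arrays the difference was -1.61 (SE 0.39, adjusted p = 0.00459), and -1.01 with values raised to background, with overlap between the groups, and Wnthigh was the lower array in 4 of 5 shared experiments. The Wnthigh minus Wntnegative difference was 0.48 (95% confidence interval -0.35 to 1.31, adjusted p = 0.367).

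Muc20, a membrane-associated mucin, was highest in Wntlow cells and above background on every array. Its lowest, median and highest values were 6.07, 6.55 and 9.02 in Wnthigh arrays, 10.35, 11.12 and 12.53 in Wntlow arrays, and 6.45, 7.61 and 8.80 in Wntnegative arrays. The Wntlow arrays lay apart from both other groups, which overlapped each other. Wntlow arrays exceeded Wntnegative arrays by 3.70 (SE 0.49, adjusted p = 5.39e-05), and Wnthigh arrays were lower than Wntlow arrays by 4.33 (SE 0.49, adjusted p = 8.59e-06), the rank 33 from the lowest of all genes. The Wnthigh minus Wntnegative difference was -0.63 (95% confidence interval -1.67 to 0.42, adjusted p = 0.344), and -0.99 (adjusted p = 0.0926) without the Wnthigh array of experiment 4. Muc4 and Muc20 overlap each other on chromosome 16 in the RefSeq annotation, and Muc5ac and Muc5b are next to each other on chromosome 7, yet each of these genes had its own probe set.

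Gel-forming and membrane mucins are set side by side here by counts and medians. In Wntlow against Wntnegative arrays 2 of 2 gel-forming and 3 of 4 membrane mucins were higher, with median differences of 6.40 and 2.08, beside a median of -0.03 over all genes. In Wnthigh against Wntnegative arrays 1 of 2 gel-forming mucins was higher (Muc5b), while 1 of 4 membrane mucins was higher (Muc4) and 1 lower (Muc1), with medians of 1.99 and -0.08, beside -0.05 over all genes. In Wnthigh against Wntlow arrays 2 of 2 gel-forming and 3 of 4 membrane mucins were lower, with medians of -4.41 and -2.88, beside -0.01 over all genes. The gel-forming median averages a large Muc5b difference and a smaller Muc5ac difference, and no test was made over these small groups.

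Gp2, a glycosylphosphatidylinositol-anchored protein known from pancreatic zymogen granules and from M cells over lymphoid tissue, was measured above background mostly in Wntlow arrays. The lowest, median and highest Gp2 values were 3.72, 4.39 and 5.62 in Wnthigh arrays, 6.85, 7.54 and 11.35 in Wntlow arrays, and 3.64, 4.11 and 4.34 in Wntnegative arrays. It was above background on 1 Wnthigh array, that of experiment 4, on 6 Wntlow arrays and on 0 Wntnegative arrays. The Wntlow arrays did not overlap the others and spread widely among themselves (SD 1.83, n = 6). Wntlow arrays exceeded Wntnegative arrays by 4.30 (SE 0.63, adjusted p = 0.000120), or by at least 3.36, and Wnthigh arrays were lower than Wntlow arrays by 3.90 (SE 0.63, adjusted p = 0.000152), or -3.23 with values raised to background. The Wnthigh minus Wntnegative difference was 0.40 (95% confidence interval -0.94 to 1.74, adjusted p = 0.656).

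Cell type markers also differed between the groups, in patterns that varied by cell type. All 5 club cell markers (Scgb1a1, Cyp2f2, Scgb3a2, Gabrp and Aldh1a1) were higher in Wnthigh and in Wntlow arrays than in Wntnegative arrays, and 3 of 5 were lower in Wnthigh than in Wntlow arrays. In experiments 2 to 5 the mean of the club markers was 14.92 to 16.86 in Wnthigh, 16.89 to 17.62 in Wntlow and 11.46 to 12.34 in Wntnegative arrays, and in experiments 7 to 9 it was 16.54 to 16.87, 18.26 to 18.61 and 11.39 to 13.19 in the same order. All 6 alveolar type II markers (Lamp3, Napsa, Slc34a2, Sftpb, Hc and Abca3) were lower in Wnthigh than in Wntnegative arrays, and 3 of 6 were lower in Wntlow than in Wntnegative arrays. In Wnthigh against Wntlow arrays 3 of these 6 were lower and 0 higher. All 6 ciliated cell markers were higher in Wnthigh than in Wntlow arrays and higher in Wntlow than in Wntnegative arrays. Every marker of these 3 lists was above background on at least 3 arrays. By the same test 15.7% of all genes were higher and 24.6% lower in Wnthigh than in Wntnegative arrays. The shares were 12.3% and 13.2% in Wntlow against Wntnegative arrays, and 11.4% and 16.4% in Wnthigh against Wntlow arrays, with dim genes included. Of 3 markers of submucosal glands and serous cells, Ltf and Dmbt1 were higher in Wntlow than in Wntnegative arrays (by at least 9.00 and 2.58 against background). The third, Lyz1, had a difference of -2.05 there, which was not called (adjusted p = 0.158). All 3 were lower in Wnthigh than in Wntlow arrays. The part of these markers in the mucus gene differences was not tested.

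The Wnthigh array of experiment 4, which was high for Muc5b, Tff2 and Muc1, was also the highest Wnthigh array for markers of several cell types. Its alveolar type II mean was 16.06, against 9.84 to 13.89 on the other Wnthigh arrays. Its club marker mean was 16.86, above 14.92 and 16.40 on the other Wnthigh arrays of its run but below 16.87 in experiment 9. Within its run it was the lowest Wnthigh array for ciliated (14.53, against 14.92 and 14.90) and neuroendocrine markers (6.54, against 6.80 and 6.99). Only 2 of 4 listed neuroendocrine markers were measured, Uchl1 and Chga, and Chga was at background on all 18 arrays. Its mean was 11.25 for submucosal gland and serous markers (7.82 to 9.63 on the other Wnthigh arrays), 9.25 for alveolar type I markers (5.595 to 8.22) and 5.57 for mesothelial markers (3.36 to 4.42). The mesothelial mean includes Wt1, at background on all 18 arrays, and the gland mean includes Dmbt1, at background on every Wnthigh array. On the Wntlow and Wntnegative arrays of experiment 4 the alveolar type II mean was 17.33 and 17.59. The part of these levels in the values of that array was not tested.

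**Figure D3:**
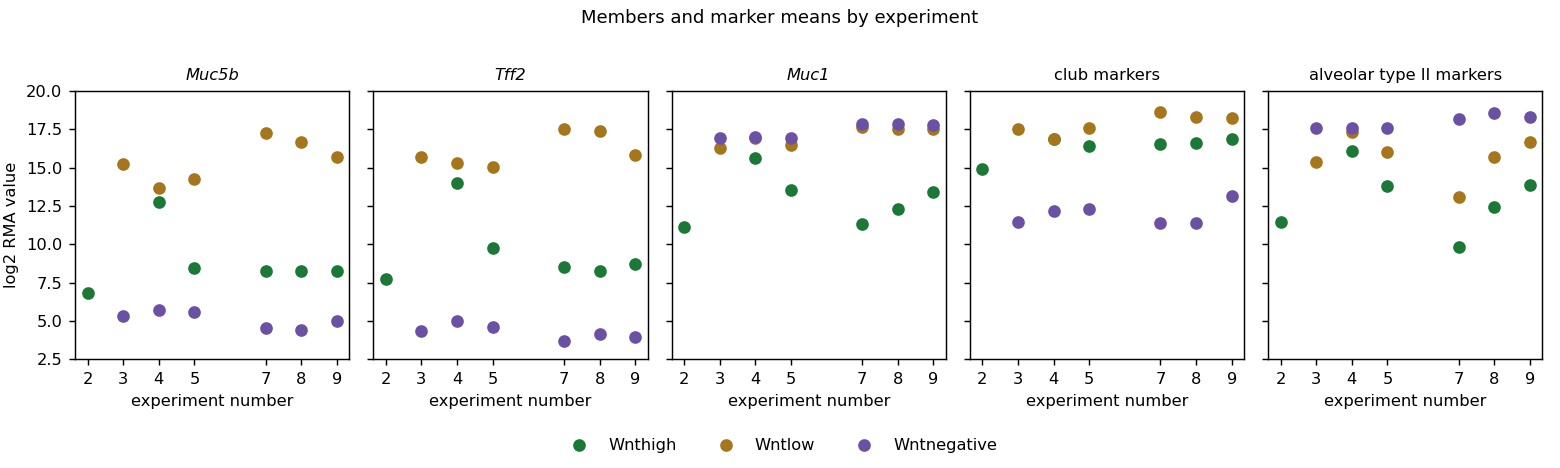
Log2 values of Muc5b, Tff2 and Muc1 and mean log2 values of the club and alveolar type II markers, by experiment number, with 1 point per array. Muc5b and Tff2 are highest in the Wntlow array in each of the 6 experiments that have one, and the Wnthigh array of experiment 4 is the highest Wnthigh array for these genes, for Muc1 and for the alveolar type II markers (16.06).

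The group differences had the same direction in both runs for all genes and comparisons other than Muc4 in Wnthigh against Wntlow arrays (0.42 in experiments 2 to 5, -0.60 in experiments 7 to 9). Of the 10 genes, 6 passed in Wnthigh against Wntnegative arrays within experiments 2 to 5 and 5 within experiments 7 to 9, beside 34.8% and 27.1% of all genes. Fits of 1 run by itself, with fewer arrays, called 5 and 4, without Muc5b in experiments 2 to 5 (adjusted p = 0.0760) and without Spdef in experiments 7 to 9 (adjusted p = 0.0653). Of all 30142 genes these single-run fits called 8999 and 7906. In Wntlow against Wntnegative arrays 7 and 9 passed, beside 16.2% and 14.7% of all genes. Muc1 was lacking in both runs (adjusted p = 0.830 and 0.907), and Muc4 (adjusted p = 0.0705) and Muc16 (adjusted p = 0.0543) were lacking in experiments 2 to 5 alone. In Wnthigh against Wntlow arrays 8 and 9 passed, beside 19.2% and 20.8% of all genes. The Wntlow minus Wntnegative difference was 8.86 and 11.89 for Muc5b, 10.69 and 12.98 for Tff2, 2.41 and 4.99 for Muc20, and 3.06 and 5.54 for Gp2, in experiments 2 to 5 and in experiments 7 to 9. The difference between runs was called for 0 of 10 genes and 0% of all genes in every comparison by limma. At an unadjusted p under 0.05 it held for 0 genes of the 10 in Wnthigh against Wntnegative, 4 in Wntlow against Wntnegative and 6 in Wnthigh against Wntlow arrays. Among all 30142 genes it held at that threshold for 1940, 1757 and 2183 in the same order.

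**Figure D4:**
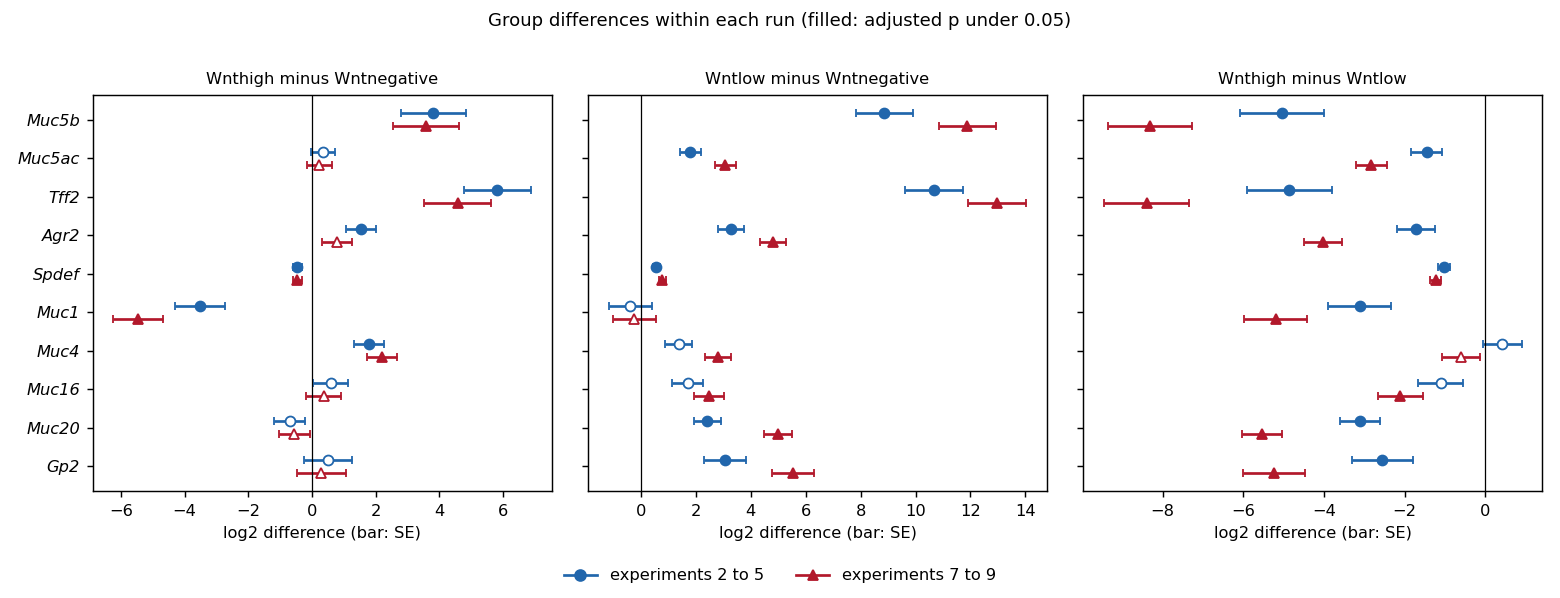
Log2 differences of the 10 genes within experiments 2 to 5 (circles) and within experiments 7 to 9 (triangles) with standard errors (bars), filled where the adjusted p was under 0.05. In the Wntlow minus Wntnegative panel Muc5b lies at 8.86 and 11.89 and Tff2 at 10.69 and 12.98, and Muc1 lies beside 0 in both runs.

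Other genes of mucus production were read from lists. The shares of all genes given beside the list counts include genes at background. The remaining gel-forming mucins, of which Muc6 and Muc19 were measured, and the remaining membrane mucins, of which Muc3, Muc3a, Muc13 and Muc15 were measured, were at background on all 18 arrays. Of 10 other proteins of airway mucus, 4 were higher and 0 lower in Wnthigh than in Wntnegative arrays (15.7% and 24.6% of all genes), 7 higher and 0 lower in Wntlow than in Wntnegative arrays (12.3% and 13.2%), and 1 higher and 6 lower in Wnthigh than in Wntlow arrays (11.4% and 16.4%). Zg16 and Tff3 also passed the test in Wnthigh against Wntnegative arrays (0.36 and -0.18) and are left out of these counts, since neither was above background on any array. The largest Wntlow minus Wntnegative differences of that list were 11.57 for Bpifb1 and 10.70 for Bpifa1, secreted airway defence proteins, and 10.97 for the secretoglobin Scgb3a1. Agr3, a relative of Agr2, was the 1 gene of the list higher in Wnthigh than in Wntlow arrays (3.16, adjusted p = 4.47e-05), and it was also higher in Wnthigh than in Wntnegative arrays (7.11, adjusted p = 6.67e-09). The trefoil gene Tff1 was at background on every array too.

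Of 12 regulators of the secretory programme, 3 were higher and 4 lower in Wnthigh than in Wntnegative arrays, where 40.3% of all genes passed, 4 higher and 1 lower in Wntlow than in Wntnegative arrays, where 25.5% passed, and 1 higher and 6 lower in Wnthigh than in Wntlow arrays, where 27.9% passed. Creb3l1, a membrane-bound transcription factor, was lower in Wnthigh than in Wntlow arrays by 3.71 (adjusted p = 7.78e-06), and Klf4 by 2.13 (adjusted p = 0.00145). Neither was called in Wntlow against Wntnegative arrays (0.27, adjusted p = 0.696 for Creb3l1, and 0.08, adjusted p = 0.918 for Klf4). Ern2, the endoplasmic reticulum stress sensor of mucous cells, was above background on the 6 Wntlow arrays and on no other array, 1.62 above Wntnegative arrays (adjusted p = 0.000128) or at least 0.65 against background. Foxa3 and Gfi1 were at background throughout, and Foxa3, which passed the test in Wnthigh against Wntlow arrays (-0.24), is not counted.

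Of 10 measured genes of mucin granule exocytosis, 1 was higher and 6 lower in Wnthigh than in Wntnegative arrays (15.7% and 24.6% of all genes), 2 higher and 5 lower in Wntlow than in Wntnegative arrays (12.3% and 13.2%), and 2 higher and 5 lower in Wnthigh than in Wntlow arrays (11.4% and 16.4%). The granule GTPase gene Rab27a was lower in Wnthigh (-3.36, adjusted p = 2.52e-07) and in Wntlow arrays (-1.48, adjusted p = 0.00226) than in Wntnegative arrays. Marcks, which takes part in mucin secretion, was higher in Wnthigh than in Wntnegative arrays by 2.21 (adjusted p = 6.75e-08).

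Of 9 genes known from M cells, which share Gp2 as a surface marker, 0 were higher and 2 lower in Wnthigh than in Wntnegative arrays, where 40.3% of all genes passed, 3 higher and 0 lower in Wntlow than in Wntnegative arrays, where 25.5% passed, and 1 higher and 4 lower in Wnthigh than in Wntlow arrays, where 27.9% passed. The 3 higher genes were Pglyrp1 (5.98, adjusted p = 1.12e-05), Ccl20 (2.18, adjusted p = 0.00696) and Tnfaip2 (1.19, adjusted p = 0.000338). Tnfaip2 was above background on 4 Wntlow arrays and on no other array. With values raised to background its difference was 0.52, which is no lower limit. Spib and Sox8, transcription factors of M cells, were at background on all 18 arrays, and Spib, which passed the test in Wnthigh against Wntnegative arrays (-0.27), is not counted.

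**Figure D5:**
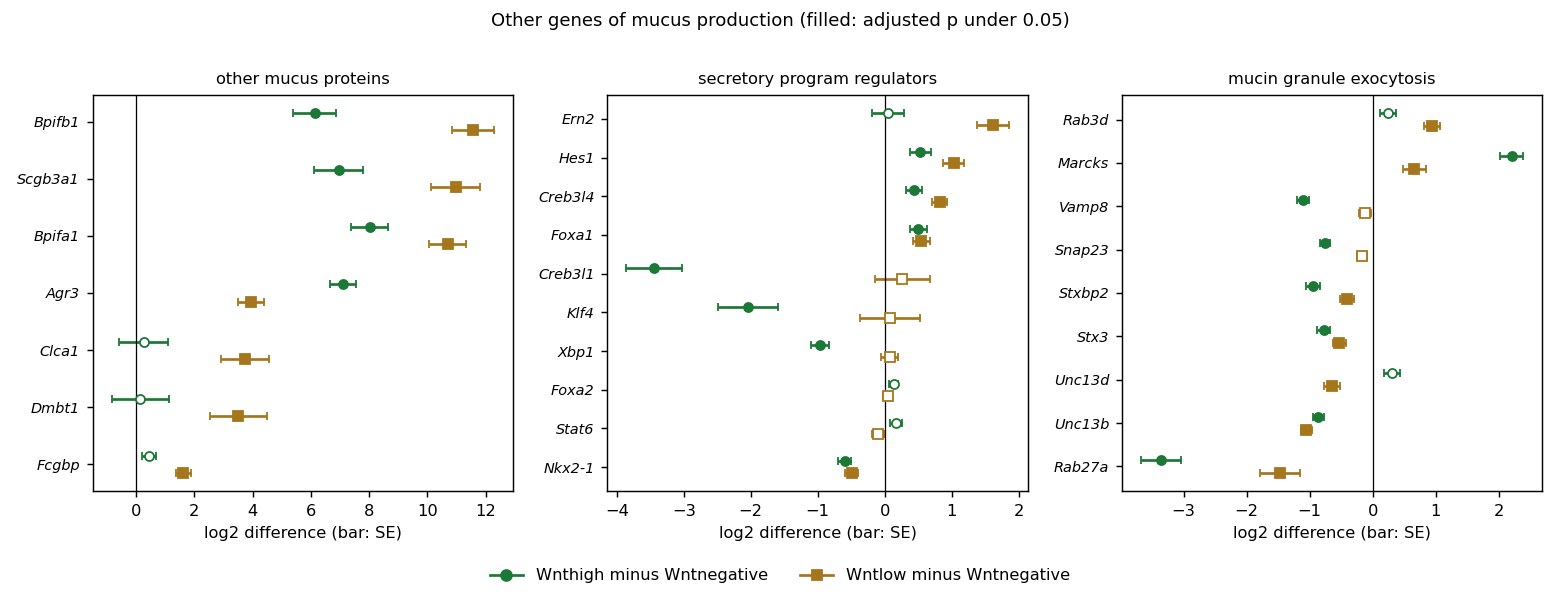
Log2 differences of other mucus proteins, secretory regulators and granule exocytosis genes, with standard errors as bars, for Wnthigh minus Wntnegative (circles) and Wntlow minus Wntnegative (squares), filled where the adjusted p was under 0.05. Only genes above background on at least 3 arrays are drawn. Bpifb1 reaches 11.57 in Wntlow minus Wntnegative, and Rab27a lies to the left in both comparisons.

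The genes most like 4 of the 10 in their pattern were sought among 18155 protein-coding named genes by the root mean square difference of log2 values over 18 arrays, after each gene's run means were taken off. The closest to Muc5b were Chad (0.57), Cyp4a12b (0.71), Ltf (0.87), Plpp3 (1.03) and Lrrc26 (1.05). Chad, which encodes chondroadherin, averaged 7.53 in Wnthigh, 14.08 in Wntlow and 4.11 in Wntnegative arrays. The closest to Gp2 were St8sia6 (0.56), Clca1 (0.69), Atp6v1b1 (0.71), Gdpd2 (0.76) and Acsf2 (0.77). The closest to Muc16 were Akr1c18 (0.33), Krt15 (0.49), Ggh (0.49), Atp10b (0.50) and Ms4a8a (0.51), of which Akr1c18 averaged 4.30 in Wnthigh, 5.88 in Wntlow and 3.74 in Wntnegative arrays. The closest to Muc1 were AA986860 (0.30), Kcnj15 (0.33), Oat (0.33), Myof (0.39) and Cd36 (0.42), of which Cd36, a fatty acid receptor, averaged 11.62 in Wnthigh, 16.10 in Wntlow and 16.99 in Wntnegative arrays. Among the 10 genes themselves the closest pairs were Muc20 with Gp2 (0.71), Muc5ac with Muc16 (0.73) and Muc5b with Tff2 (0.78), of which Muc5ac and Muc16 were at or near background on most arrays.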

How the data were processed

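The table deposited by the authors holds log2 values for 18 arrays and 72688 probe sets, produced by RMA per the submitters' processing notes. RMA corrects background, normalizes by quantiles and summarises each probe set. Software version, chip library and build were not given in the sources used here. Values ran from 1.79 to 19.93, so differences are stated on the log2 scale and not as ratios of RNA. Medians and the number of decimals split the arrays into 2 runs (experiments 2 to 5 and 7 to 9), which were treated as normalized apart. Input was 8 ng of total RNA.

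Gene names were taken from the platform's annotation, and 827 symbols were updated through gene identifiers. Probe sets with several symbols (2146) or none (33206) were left out, and 355 genes with several probe sets were read from that of highest mean. This left 30142 genes, with no filter on dim genes.

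Differences were fitted in R 4.3.3 with limma 3.58.1 (lmFit, then eBayes) on all 18 arrays, with group and run as terms and two-sided tests, with Benjamini-Hochberg adjustment over all genes and a threshold of 0.05. The fit was tested on simulated data. Within-run differences came from a fit of 6 group-by-run means. Limits written "at least" use values raised to each array's background. Each array is a pool from an experiment, and its number is shared across groups in the titles, so the number pairs arrays: residuals of 16 same-numbered pairs correlated at 0.486 to 0.802, and at -0.147 to 0.410 with run means removed. The number of arrays limits the precision.

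The 10 genes, the lists, the markers and the tests were chosen with earlier results of these data known. The genes named are the 10, the 5 nearest to each of Muc5b, Muc16, Muc1 and Gp2, and up to 3 per list with the largest called difference; genes named as being at background, the directions of Agr3, and the genes of the marker lists were added after their values were seen. Promoters are from RefSeq, build GRCm38.p6.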

Additional observations from a re-analysis of the deposited data

Results flagged for a closer look

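The highest and the lowest of the 6 arrays of each group were set against the rest of their group by Dixon's ratio, the gap to the nearest array over the whole range. This was done for 10 genes, 3 groups and 2 scales, 60 tests in all, of which chance alone passes about 1 in 20. The Wnthigh array of experiment 4 was set apart on the high side for Muc5b (0.7266 on the deposited scale and with run means taken off), Tff2 (0.68 on both scales), Muc16 (0.6526 deposited, 0.7917 with run means taken off), Muc5ac (0.7183 with run means taken off) and Muc20 (0.7542 with run means taken off). Its values were 12.79 for Muc5b and 13.98 for Tff2, beside 6.83 to 8.46 and 7.76 to 9.75 on the other Wnthigh arrays.

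The Wntlow array of experiment 8 was set apart on the high side for Agr2 on the deposited scale (0.6704), with a value of 9.85 beside 7.17 to 8.05 on the other Wntlow arrays.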

How the results depend on the processing

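The numbers of genes called were 12142 (Wnthigh against Wntnegative), 7697 (Wntlow against Wntnegative) and 8402 (Wnthigh against Wntlow). Without a term for the run they were 2824, 1061 and 1351, and the share of calls that were higher moved to 52.2%, 79.2% and 53.4%, beside 38.9%, 48.2% and 41.1% with it. Fits of 1 run alone called 7906 genes in Wnthigh against Wntnegative arrays (experiments 7 to 9), 2532 (experiments 2 to 5) and 4471 (experiments 7 to 9) in Wntlow against Wntnegative arrays, and 3291 in Wnthigh against Wntlow arrays (experiments 2 to 5), each with fewer arrays. Leaving out 1 experiment at a time gave 10772 to 11618, 6071 to 7660 and 7178 to 8582 genes, and 5 to 6 of the 10 described in the first comparison and 9 in each of the others. Of the 10, 5 were called in Wnthigh against Wntlow arrays in experiments 2 to 5 alone, where Muc5b (adjusted p = 0.0577), Tff2 (0.0657), Muc1 (0.0850) and Muc16 (0.186) missed the threshold.

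The Muc4 difference between Wnthigh and Wntlow arrays turned to 0.42 in experiments 2 to 5 alone, to 0.022 after quantile normalization over all arrays, and to 0.020, 0.058 and 0.054 without experiments 3, 7 and 8 (from -0.48 to 0.058 over the 7 omissions), and it was called under none of them. The replicate block (experiment number) ended the Agr2 call in Wnthigh against Wntnegative arrays (1.10, adjusted p = 0.101) and changed no other call of the 10 genes. Spdef was called in no comparison without the run term (adjusted p = 1 in both comparisons with Wntnegative arrays and 0.308 in Wnthigh against Wntlow arrays). The fit without the Wnthigh array of experiment 4 was chosen after seeing the data. Causes were not tested.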

Other observations

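Markers of glands and of other epithelial cell types gave further values beside the mucus genes. Ltf, which encodes lactoferrin of serous cells, was higher in Wntlow than in Wntnegative arrays by 9.23, or at least 9.00 against background (SE 0.72, adjusted p = 4.34e-07) and lower in Wnthigh than in Wntlow arrays by 5.00 (SE 0.72, adjusted p = 5.43e-05). Dmbt1, a secreted scavenger receptor of glands, was above background on the 6 Wntlow arrays and on no other array. Lyz1, a lysozyme gene, had its highest mean in Wntnegative arrays and was lower in Wnthigh than in Wntnegative arrays by 4.88 (SE 1.003, adjusted p = 0.000809). Like Ltf, it was lower in Wnthigh than in Wntlow arrays (-2.82, adjusted p = 0.0462). Its difference in Wntlow against Wntnegative arrays was not called (-2.05, adjusted p = 0.158). Of the basal cell markers, Krt5 was higher in Wntlow than in Wntnegative arrays (0.52, adjusted p = 0.0309), and by 0.24 with values raised to background. That is no lower limit, since Krt5 was above background on only 4 Wntlow arrays. Krt14 differed by 0.08 in this comparison (adjusted p = 0.240), and Trp63 and Ngfr were at background on all 18 arrays.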
